A study of Mus musculus with 9 samples.

Results

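The genes described here are targets of p53, the transcription factor that answers DNA damage and other stress, in mouse embryonic stem cells in which the RNA of Apela had been knocked down. Apela encodes a short secreted peptide, and the series title places its RNA in a feedback loop with p53-mediated cell death. A list of 38 target genes was used, and a gene was measured if the platform annotation gave it a probe set with that single gene symbol. By this rule 37 of the 38 were measured, out of 19938 genes in all, each by its brightest probe set. Fdxr, the mitochondrial ferredoxin reductase, was not analysed here, and neither were Trp53, which encodes p53, Cdkn1a and Bax. All cells were R1E, a mouse embryonic stem cell line, grown without drug treatment in 15% fetal bovine serum with leukemia inhibitory factor at 1000 units/ml, which holds such cells in the undifferentiated state. They carried a lentiviral short hairpin RNA against Apela, either shApela_1 or shApela_2, or a lentiviral control hairpin aimed at luciferase (shLuc), a gene that mouse cells lack. Each of the 3 groups had 3 arrays. Whether repeats came from separate cultures or separate transductions is not stated, so the p-values reflect spread among these arrays alone, which may be technical.

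In unstressed cells p53 is held low by Mdm2, a ubiquitin ligase that marks it for destruction, and by its partner Mdm4. When DNA is damaged, kinases free p53 from Mdm2, and it then binds pairs of a short palindromic element near its target genes and raises their transcription. The targets fall into genes that feed back on p53 itself, genes that slow the cell cycle, genes of metabolism, genes of DNA repair and genes of cell death. Embryonic stem cells are known to carry much p53 protein and to respond to damage by differentiation or apoptosis more than by a lasting arrest.

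The RNA targeted by the hairpins was lower on all knockdown arrays than on the shLuc arrays, but stayed above the median probe set (7.06). Apela measured 9.76, 9.68 and 9.65 on the log2 scale on the shApela_1 arrays and 9.79, 9.79 and 9.56 on the shApela_2 arrays, against 11.40, 11.31 and 11.19 on the shLuc arrays. It fell by 1.60 with shApela_1 and fell by 1.58 with shApela_2 (limma, adjusted p = 0.000197 and 0.000219). All 12 measured markers of embryonic stem cells lay above the median probe set of the table, with means from 10.08 to 12.82. Of the markers of other cell types a culture could hold, 5 of 10 for fibroblasts and feeders, 3 of 8 for endoderm, 1 of 7 for primitive streak and mesoderm, 2 of 5 for neuroectoderm and 4 of 8 for trophectoderm lay above that median, and 0 of these passed the test in any comparison in limma. At an unadjusted p under 0.05 against shLuc, 5 of these 38 were lower with shApela_1, where 3.38% of all genes were, and with shApela_2 1 was higher and 1 lower, near the 2.99% and 2.78% of all genes. The mean of the stem cell markers per array ran from 11.54 to 11.60 with shApela_1 and from 11.64 to 11.67 with shApela_2, against 11.62 to 11.67 with shLuc, and that of the trophectoderm markers from 7.18 to 7.43 with shApela_1 and from 7.43 to 7.57 with shApela_2, against 7.44 to 7.60 with shLuc. Lin28a, a stem cell marker that binds RNA, was 0.50 higher with shApela_2 than with shApela_1 (limma, adjusted p = 0.0266), the 1 of these markers to pass. Against shLuc, 9 of the 12 stem cell markers were lower with shApela_1, with a median of -0.04. Lin28a (-0.44, limma, adjusted p = 0.064) and Dnmt3l (-0.24) were the lowest. Both lists thus had their lowest means with shApela_1, and the part of this in the results below was not tested. The third shApela_2 array stood apart, its median being 7.12 while those of the other 8 ranged from 7.03 to 7.07. Counts and medians of the targets with shApela_2 are therefore also given without it.

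The p53 half-site consensus, a palindrome of 10 bases and so the same on both strands, was searched in windows from 250 bases before to 50 bases after each RefSeq transcription start (build GRCm38.p6). Of the 38 listed genes 31 had such windows, 43 in all. At least 1 exact half-site occurred in 12 of these 43 windows (27.9%), where 8.36% of all 32851 windows hold one. A pair of half-sites, with at most 13 bases between them and at most 1 mismatch in all, occurred in 5 target windows (11.6%), against 1.09% of all windows. These 5 sites, of Ccng1, Gtse1, Pml, Polk and Rps27l, are printed on the strand of each gene because they are the closest matches to the element p53 binds. Positions refer to the start whose window holds the site, which need not be the main start of the gene. Polk, Rps27l and Gtse1 each had another window without an exact half-site, where the best pair had 4, 3 and 4 mismatches. Capitals mark the half-sites, and lower case marks the bases between them and the mismatched base.
Ccng1, chr11:40755462-40755481, minus strand, from position -195 relative to the start: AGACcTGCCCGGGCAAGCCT
Gtse1, chr15:85859945-85859964, plus strand, across the start: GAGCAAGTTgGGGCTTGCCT
Pml, chr9:58249921-58249947, minus strand, from position -161 relative to the start: AGcCATGCCCgcatgccGGGCTTGTTT
Polk, chr13:96519398-96519418, minus strand, from position -231 relative to the start: GAACTAGCCTcAAACTTaTTC
Rps27l, chr9:66946296-66946315, plus strand, from position -117 relative to the start: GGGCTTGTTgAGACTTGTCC
None of these 5 genes passed the test against shLuc with either hairpin (limma, smallest adjusted p = 0.607, of Ccng1 with shApela_1). A match describes the letters of the window, not binding in these cells.

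The 250 bases before the start of Ptpn14 and of Phlda3, the targets that rose with shApela_1 below, are printed for comparison. Capitals would mark the core of the element, which is CATG or CTAG, each its own reverse complement, or CAAG, which reads CTTG on the other strand, and neither stretch holds one. The same is true of 3.46% of all windows over these 250 bases. This says only that the letters are not in this stretch. The windows searched above, which also reach past the start, held 1 core each for Phlda3 and Ptpn14. A core occurred in 100% of the target windows and in 97.96% of all windows.
Phlda3, chr1:135765835-135766084, plus strand: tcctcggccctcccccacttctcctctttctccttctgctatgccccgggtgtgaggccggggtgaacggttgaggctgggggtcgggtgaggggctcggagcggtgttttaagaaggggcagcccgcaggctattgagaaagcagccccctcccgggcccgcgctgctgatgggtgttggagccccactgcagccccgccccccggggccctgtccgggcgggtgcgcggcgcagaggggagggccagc
Ptpn14, chr1:189728018-189728267, plus strand: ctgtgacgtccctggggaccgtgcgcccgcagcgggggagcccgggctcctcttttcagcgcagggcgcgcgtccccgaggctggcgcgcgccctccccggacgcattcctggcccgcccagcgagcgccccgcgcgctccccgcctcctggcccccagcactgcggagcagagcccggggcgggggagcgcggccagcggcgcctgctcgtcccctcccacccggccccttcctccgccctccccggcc

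With shApela_1 most targets lay slightly above their shLuc level, and Ptpn14 and Phlda3 rose. Of the 37 targets 27 were above and 10 below, with a median difference of 0.08 on the log2 scale, where 54.5% of all genes were above with a median of 0.01. The 2 that passed the test, at an adjusted p under 0.05 over all genes in limma, were 2 of 37, both higher, where 0.336% of all genes passed and 0.14% passed upward. At an unadjusted p under 0.05 the count was 8 of 37 targets (7 higher and 1 lower), where 7.69% of all genes were under it (4.31% higher and 3.38% lower). All 3 shApela_1 arrays lay above all 3 shLuc arrays for 7 targets (8.05% of all genes) and below them for 1 (5.61% of all genes). The whole range of the 37 differences ran from -0.12, of Fbxw7, to 0.34, of Btg2. In total RNA of a culture, a change in every cell and a change in the share of cells of one state cannot be told apart.

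With shApela_2 no target passed the test and the targets were not shifted as a group. By limma 0 of 37 targets passed (0.015% of all genes did), and 3 had an unadjusted p under 0.05, Ak1 above shLuc and Sfn and Fbxw7 below it (5.77% of all genes, 2.99% above and 2.78% below). The shApela_2 arrays lay wholly above shLuc for 3 targets (5.68% of all genes) and wholly below for 2 (4.65% of all genes). Of the 37, 20 were above and 17 below, with a median of 0.00, beside 57.5% above and a median of 0.02 over all genes. The differences ran from -0.22 to 0.21. This balance depended on the third shApela_2 array and on scaling. Without that array 29 of 37 targets were above shLuc (median 0.05), beside 53.2% and a median of 0.00 over all genes. With array medians centred 11 were above (median -0.04), where the median of all genes was -0.03. With dim genes left out (mean under 7.06), the median was 0.00 over 35 targets and -0.02 over all genes kept.

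**Figure D1:**
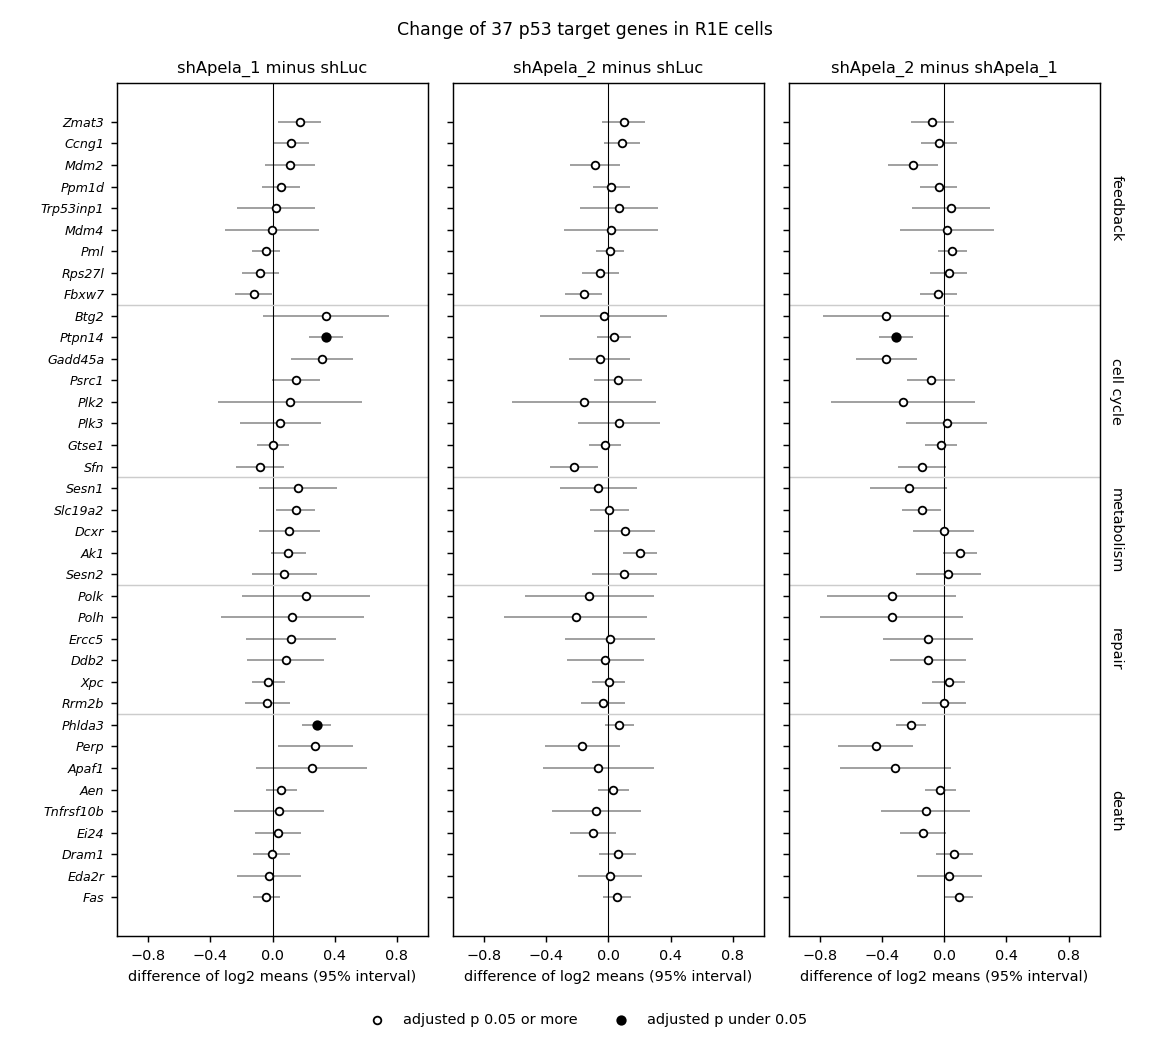
Differences of log2 means, with their 95% intervals, of the 37 measured p53 targets in the 3 comparisons, ordered by function. Filled points, Ptpn14 and Phlda3 with shApela_1 and Ptpn14 between the hairpins, had an adjusted p under 0.05 in limma.

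Among the feedback genes, which act on p53 or on its stability, none passed the test, and the differences were small. The 9 members had medians of 0.02 with shApela_1 and 0.02 with shApela_2, or 0.04 without the third shApela_2 array. Mdm2 measured 11.15, 11.09 and 10.97 on the shApela_1 arrays and 10.90, 10.96 and 10.75 on the shApela_2 arrays, against 10.94, 11.04 and 10.89 on the shLuc arrays. These groups overlapped, and the differences were 0.12 (95% interval from -0.05 to 0.28) and -0.09 (from -0.25 to 0.07), with adjusted p = 0.895 and 0.7 in limma. The shApela_1 difference was 0.22, 0.05 and 0.08 within pairs of equal number. With the replicate number as a block its interval ran from 0.01 to 0.22 (limma, adjusted p = 0.351). Mdm4, which masks the activation domain of p53, differed by -0.00 and 0.02 with wide intervals (from -0.30 to 0.30 and from -0.29 to 0.32).

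Ccng1, cyclin G1, which recruits a phosphatase to Mdm2, measured 12.18, 12.04 and 12.05 with shApela_1 and 12.09, 12.01 and 12.08 with shApela_2, against 12.02, 11.91 and 11.98 with shLuc. The shApela_1 arrays lay above every shLuc array and the shApela_2 arrays did not, and the 2 differences were 0.12 and 0.09 (limma, adjusted p = 0.607 and 0.68). Zmat3, a zinc finger protein that binds RNA, had the largest positive difference of the feedback genes with both hairpins. It measured 9.60, 9.49 and 9.64 with shApela_1 and 9.59, 9.44 and 9.46 with shApela_2, against 9.38, 9.34 and 9.48 with shLuc. Again the shApela_1 arrays alone lay clear of shLuc, and the differences of 0.18 and 0.10 did not pass (limma, adjusted p = 0.45 and 0.68).

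Fbxw7, the substrate receptor of a ubiquitin ligase that degrades cyclin E and Myc, was the lowest member of this group against shLuc. Its levels were 7.73, 7.75 and 7.74 with shApela_1 and 7.77, 7.70 and 7.64 with shApela_2, against 7.84, 7.79 and 7.96 with shLuc. All 6 knockdown arrays lay below all 3 shLuc arrays, with differences of -0.12 and -0.16, and neither passed (limma, adjusted p = 0.642 and 0.68). A second, dimmer probe set of Fbxw7 differed by -0.02 and -0.09. The other 4 feedback genes differed from shLuc by between -0.08 and 0.07 with either hairpin. They were Ppm1d, a phosphatase that switches off p53 signalling, Trp53inp1, a nuclear stress protein, Pml, the scaffold of PML nuclear bodies, and Rps27l, a ribosomal protein paralog, and their 3 arrays overlapped those of shLuc.

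Genes of the cell cycle held the clearest difference. With shApela_1 7 of 8 were above shLuc (median 0.13), and with shApela_2 3 of 8 were (median -0.02), a count that rested on the third shApela_2 array: without it 7 of 8 were above (median 0.08), all but Sfn. Ptpn14, a tyrosine phosphatase that restrains the growth regulator YAP, measured 9.59, 9.55 and 9.48 with shApela_1 and 9.23, 9.27 and 9.19 with shApela_2, against 9.12, 9.21 and 9.25 with shLuc. Every shApela_1 array lay above every shLuc array, and the shApela_2 arrays overlapped the shLuc arrays. Ptpn14 rose by 0.34 with shApela_1 (SE 0.05, limma, adjusted p = 0.0367), or 27.0%. With shApela_2 its difference was 0.03 (95% interval from -0.08 to 0.14, adjusted p = 0.809). Between arrays of equal number the shApela_1 difference was 0.46, 0.34 and 0.23, and the replicate number as a block kept the call (limma, adjusted p = 0.0356, where 0.953% of all genes passed).

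Gadd45a, a stress protein that holds cells before mitosis, was added here after its values were seen. It measured 9.74, 9.69 and 9.47 with shApela_1 and 9.35, 9.33 and 9.10 with shApela_2, against 9.28, 9.38 and 9.28 with shLuc. The shApela_1 arrays were all above shLuc, with a difference of 0.32 (SE 0.09, limma, adjusted p = 0.261). That difference passed with array weights (0.37, limma, adjusted p = 0.0102) and on the arrays numbered 1 and 2 alone, a setting chosen after seeing the data (0.38, adjusted p = 0.0355). In these settings 688 and 249 of 19938 genes passed. It did not pass with the replicate block (0.0595), dim genes left out (0.182), a second quantile normalization (0.181), the trended robust prior (0.302) or centred medians (0.358). Nor did it pass without any single array (limma, adjusted p from 0.110 to 0.787). With shApela_2 the difference was -0.06 (adjusted p = 0.826). Btg2, which recruits the machinery that shortens messenger RNA tails and slows proliferation, varied far more among arrays of a group. It measured 9.25, 9.05 and 8.84 with shApela_1 and 8.90, 8.84 and 8.28 with shApela_2, against 8.81, 8.84 and 8.45 with shLuc. Its difference of 0.34 with shApela_1 had an interval from -0.06 to 0.75 (limma, adjusted p = 0.789), although it was as large as that of Ptpn14. Its differences within pairs of equal number were 0.44, 0.21 and 0.39, and with the number as a block the interval ran from 0.18 to 0.51 (limma, adjusted p = 0.0803).

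Sfn, the 14-3-3 protein sigma, which keeps mitotic kinases out of the nucleus, ran the other way. It measured 9.39, 9.39 and 9.41 with shApela_1 and 9.28, 9.13 and 9.35 with shApela_2, against 9.44, 9.39 and 9.60 with shLuc. Its shApela_2 arrays lay below every shLuc array, and the differences of -0.08 and -0.22 did not pass (limma, adjusted p = 1 and 0.68). A second, dimmer probe set with the symbol Sfn gave -0.06 and -0.16. Plk3, a polo-like kinase, had the largest positive difference of this group with shApela_2, at 0.07 (adjusted p = 0.842). It measured 9.57, 9.57 and 9.52 with shApela_1 and 9.65, 9.80 and 9.27 with shApela_2, against 9.53, 9.57 and 9.41 with shLuc, so the shApela_2 arrays held both its highest and its lowest level. Of the other 3, Psrc1, a spindle protein, had all its shApela_1 arrays above shLuc (0.15, limma, adjusted p = 0.661). The kinase Plk2 and the microtubule-binding Gtse1 differed by 0.11 and 0.00 with shApela_1.

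**Figure D2:**
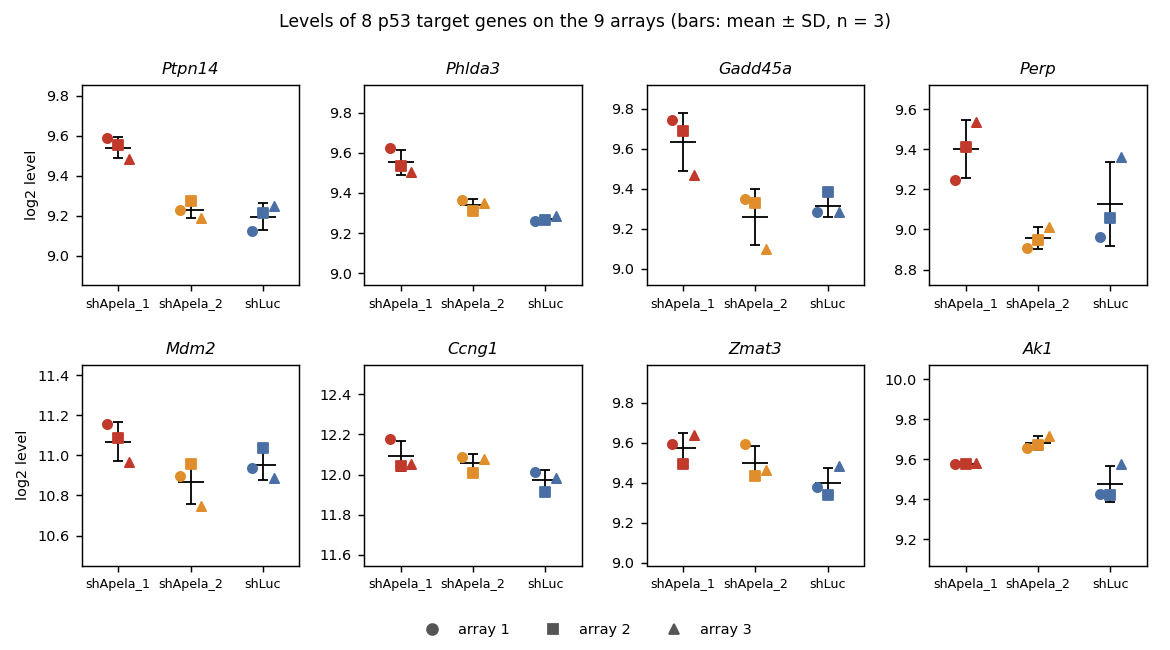
Log2 levels of 8 p53 targets on each of the 9 arrays, with the mean and SD of each group of 3 and the same width of axis in every panel. Ptpn14, Phlda3 and Gadd45a are high on the shApela_1 arrays, and for Ptpn14 the shApela_2 arrays, from 9.19 to 9.27, overlap those of shLuc, from 9.12 to 9.25.

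Death genes included the other target that rose. Phlda3, which competes with the survival kinase AKT for membrane lipids, measured 9.62, 9.54 and 9.50 with shApela_1 and 9.36, 9.31 and 9.35 with shApela_2, against 9.26, 9.26 and 9.28 with shLuc. All 6 knockdown arrays lay above all 3 shLuc arrays, the shApela_1 arrays by more. Phlda3 rose by 0.28 with shApela_1 (SE 0.04, limma, adjusted p = 0.0385), or 21.8%. With shApela_2 the difference was 0.07 (95% interval from -0.02 to 0.16, adjusted p = 0.68). Within pairs of equal number the shApela_1 difference was 0.36, 0.27 and 0.22, and it passed with the replicate number as a block (limma, adjusted p = 0.0343).

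The calls of Ptpn14 and Phlda3 with shApela_1 were near the threshold. Both ended with array medians centred (limma, adjusted p = 0.0572 and 0.0522), with a trended robust prior (0.0592 and 0.0716), with only the compared arrays (0.0655 for both) and when any array but the third shApela_2 array was left out (from 0.0647 to 0.198 for both), and that of Phlda3 ended after a second quantile normalization (0.0571). With the replicate block and without the third shApela_2 array, a setting chosen after seeing the data, both passed along with Apaf1, Btg2, Gadd45a, Perp and Zmat3, 7 of 37 where 6.9% of all genes passed. The differences stayed between 0.31 and 0.37 for Ptpn14 and between 0.25 and 0.31 for Phlda3 when single arrays were left out.

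Perp, a membrane protein of desmosomes that p53 uses in apoptosis, was lower on every shApela_2 array than on every shApela_1 array. That difference of -0.44 did not pass (limma, adjusted p = 0.116), and 10.1% of all genes lay apart this way. Perp measured 9.25, 9.41 and 9.54 with shApela_1 and 8.91, 8.95 and 9.01 with shApela_2, against 8.96, 9.06 and 9.36 with shLuc. The shLuc arrays spanned most of the gap, and the differences of 0.27 and -0.17 from shLuc did not pass (limma, adjusted p = 0.544 and 0.68). Within pairs of equal number Perp was above shLuc with shApela_1 by 0.29, 0.36 and 0.18. With the number as a block that interval ran from 0.13 to 0.42 (limma, adjusted p = 0.0967). Fas, a death receptor, was dim, at 4.95, 4.88 and 4.84 with shApela_1 and 4.96, 4.98 and 5.01 with shApela_2, against 4.95, 4.92 and 4.92 with shLuc. Its shApela_2 arrays all lay above shLuc, and its differences were -0.04 and 0.06 (limma, adjusted p = 1 and 0.681). Apaf1, the core of the apoptosome, differed by 0.25 with shApela_1 on arrays that varied widely (SD 0.18 in shApela_1 and 0.14 in shLuc, limma, adjusted p = 0.904). Its interval with the number as a block ran from 0.07 to 0.44 (limma, adjusted p = 0.224). The other 5, the death receptors Eda2r and Tnfrsf10b, the nuclease Aen, the autophagy gene Dram1 and the endoplasmic reticulum protein Ei24, differed from shLuc by between -0.10 and 0.06. The medians of the 9 death genes were 0.04 with shApela_1 and 0.01 with shApela_2, or 0.05 without the third shApela_2 array.

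Metabolic targets were the group in which all measured members lay above shLuc with shApela_1, 5 of 5, and 4 of 5 did with shApela_2 (medians 0.11 and 0.10), though none passed. Without the third shApela_2 array 5 of 5 were above with shApela_2 (median 0.05). Ak1, an adenylate kinase that balances adenine nucleotides, measured 9.58, 9.58 and 9.58 with shApela_1 and 9.65, 9.67 and 9.72 with shApela_2, against 9.43, 9.42 and 9.58 with shLuc. Its shApela_2 arrays lay above every shLuc array, and the differences were 0.10 and 0.21 (limma, adjusted p = 0.713 and 0.638). Sesn1, a sestrin that restrains the growth kinase complex mTORC1, measured 8.95, 8.90 and 8.79 with shApela_1 and 8.74, 8.79 and 8.42 with shApela_2, against 8.60, 8.90 and 8.64 with shLuc. The groups overlapped, with differences of 0.16 and -0.07 (limma, adjusted p = 0.939 and 0.839). The thiamine transporter Slc19a2 had all shApela_1 arrays above shLuc (0.15, adjusted p = 0.506), while Sesn2, the other sestrin, and Dcxr, a xylulose reductase, differed by 0.08 and 0.11.

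No repair gene lay apart from shLuc with either hairpin, a count near the shares of all genes. Those were 8.05% above and 5.61% below with shApela_1, and 5.68% and 4.65% with shApela_2. The 6 members had medians of 0.10 with shApela_1 and -0.03 with shApela_2, a value that turned to 0.05 without the third shApela_2 array, and for all 6 the arrays of each hairpin overlapped those of shLuc. Polk, a polymerase that copies past damaged bases, measured 9.28, 9.15 and 8.79 with shApela_1 and 8.89, 8.96 and 8.36 with shApela_2, against 8.91, 9.02 and 8.64 with shLuc. Its shApela_1 difference within pairs of equal number was 0.36, 0.13 and 0.15. With the number as a block the interval ran from 0.06 to 0.37 (limma, adjusted p = 0.214). Polh, another such polymerase, measured 8.22, 8.12 and 8.02 with shApela_1 and 7.95, 8.11 and 7.28 with shApela_2, against 7.94, 8.25 and 7.78 with shLuc. In both genes the third array was the lowest of every group, and the shApela_2 differences of -0.12 and -0.21 rested on the third shApela_2 array: without it they were 0.07 and 0.04.

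Ercc5, an endonuclease of nucleotide excision repair, measured 9.27, 9.08 and 9.04 with shApela_1 and 9.20, 9.16 and 8.71 with shApela_2, against 9.06, 9.08 and 8.89 with shLuc. Rrm2b, a ribonucleotide reductase subunit that supplies nucleotides for repair, measured 7.20, 7.09 and 7.23 with shApela_1 and 7.20, 7.20 and 7.12 with shApela_2, against 7.20, 7.32 and 7.10 with shLuc. Differences were 0.12 and 0.01 for Ercc5 and -0.03 and -0.03 for Rrm2b. The damage sensors Xpc and Ddb2 differed by between -0.03 and 0.08.

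Set against each other, the hairpins differed in Ptpn14, and with all 9 arrays most targets were lower with shApela_2 than with shApela_1. Of the 37, 26 were lower and 11 higher, with a median of -0.08, beside 57.8% higher and a median of 0.02 over all genes. With dim genes left out (mean under 7.06), the median was -0.09 over 35 targets and -0.03 over all genes kept. Ptpn14 was lower with shApela_2 by 0.31 in the mean (change -0.31, SE 0.05, limma, adjusted p = 0.0276), the 1 of 37 past the test where 0.948% of all genes passed and 0.592% passed downward. Phlda3 (-0.21, adjusted p = 0.0575), Gadd45a (-0.37, adjusted p = 0.107) and Perp (-0.44, adjusted p = 0.116) had all shApela_2 arrays below all shApela_1 arrays and did not pass in limma. Targets with the groups apart in this way numbered 7 (10.1% of all genes), and 2, Ak1 and Fas, lay apart upward (7.49% of all genes).

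Deviations of arrays of equal number correlated only weakly between the hairpins (0.18, 0.21 and 0.21), so a block by number rests on an uncertain pairing here. With that block 6 of 37 targets passed, all lower with shApela_2, where 3.28% of all genes passed. These were Perp (limma, adjusted p = 0.0168), Gadd45a (0.0221), Ptpn14 (0.0257), Btg2 (0.0398), Phlda3 (0.0419) and Polk (0.045). Leaving out the third shApela_2 array as well, a setting chosen after seeing the data, the same 6 passed (adjusted p from 0.00815 to 0.0421, where 6.02% of all genes passed), with Btg2 at -0.29 and Polk at -0.27. Without the block and that array these were -0.18 and -0.15 and did not pass (limma, adjusted p = 0.716 and 0.792), where with all arrays they were -0.37 and -0.34. The median of the 37 depended on the third shApela_2 array: without it, it was -0.01 and 21 of 37 were lower. Over all genes the median was then -0.0004, with 10023 of 19938 lower. Without that array the call of Ptpn14 held (-0.29, adjusted p = 0.0457), and it ended with only the compared arrays (0.0964), without the second shLuc array (0.0645) and without any single one of the other hairpin arrays (0.0511 to 0.136). The 3 comparisons share arrays, so a target high in shApela_1 weighs on 2 of them.

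Many targets were low on the third array of each group. It was the lowest in all 3 groups for 15 of the 37 targets (40.5%), where 11.1% of all genes did so. Cell cycle genes held 5 of these (Btg2, Gadd45a, Plk2, Plk3 and Psrc1), death genes 4 (Apaf1, Ei24, Eda2r and Tnfrsf10b), feedback genes 3 (Mdm2, Mdm4 and Trp53inp1), repair genes 3 (Polk, Polh and Ercc5) and metabolic genes 0. Ak1, Perp, Ppm1d, Sesn2 and Sfn showed the opposite, with the third array the highest in every group (13.5% of targets and 13.5% of all genes). The labels do not state what the numbers stand for.

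**Figure D3:**
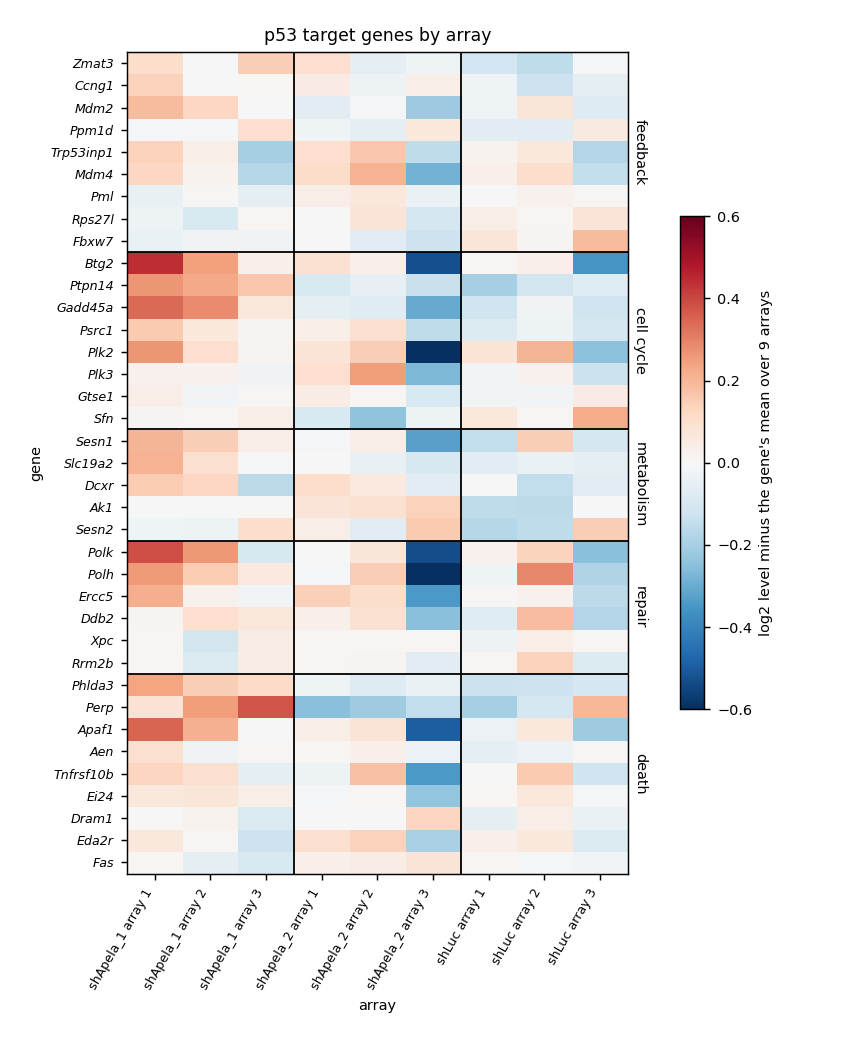
Deviation of each p53 target from its own mean over 9 arrays (log2, red above and blue below), with arrays in columns by group and genes in rows by function. The third shApela_2 array is the lowest of the 9 for 20 of the 37 targets, and the first shApela_1 array is the highest for 15.

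The extremes lay on single arrays. The first shApela_1 array was the highest of the 9 for 15 targets, against 8.12% of all genes, and the third shApela_2 array was the lowest for 20, against 22.3% of all genes. The median deviation of the 37 targets from their 9-array means was 0.10, 0.03 and 0.01 on the shApela_1 arrays and 0.01, 0.03 and -0.14 on the shApela_2 arrays, against -0.02, 0.02 and -0.07 on the shLuc arrays. The same median over all genes lay between -0.01 and 0.03 on every array. Within pairs of equal number, the targets' median difference of shApela_1 from shLuc was 0.15, 0.00 and 0.06, and 17 of 37 targets were above shLuc in all 3 pairs (20.8% of all genes) and 3 below (16.1% of all genes). For shApela_2 the pairs gave 0.07, 0.02 and -0.11, with 8 of 37 above in all 3 (17.0% of all genes) and 7 of 37 below (13.6% of all genes). Whether the numbers pair these groups is uncertain. The share of this array-to-array variation in the difference between groups was not tested.

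**Figure D4:**
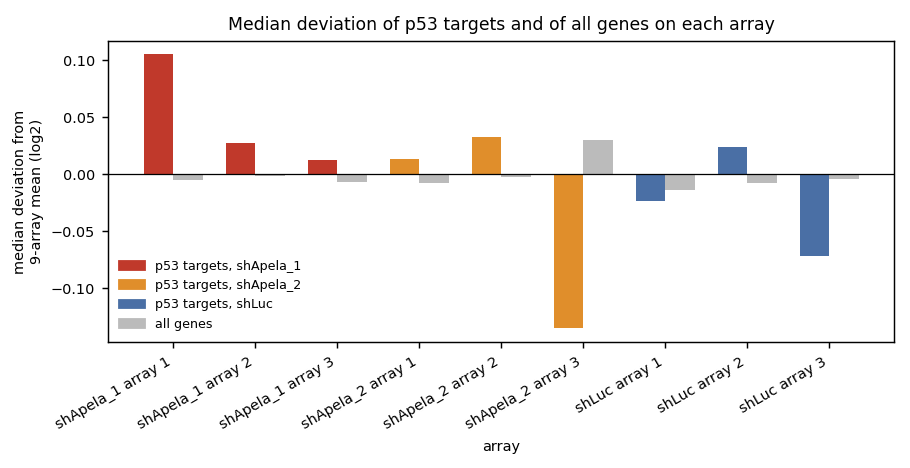
Median deviation from the 9-array mean (log2) of the 37 p53 targets, coloured by group, and of all genes, in grey, on each array. The targets range from -0.14 on the third shApela_2 array to 0.10 on the first shApela_1 array, while all genes stay between -0.01 and 0.03.

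Targets differed in how steady they were. The SD within groups, pooled over the 3 groups, had a median of 0.09 over the targets and 0.08 over all genes. It was smallest for Fas (0.03), Pml and Phlda3 (0.04 each) and largest for Plk2 (0.30), Polh (0.29), Polk and Btg2 (0.26 each). Phlda3 and Ptpn14 (0.05) were thus among the steadier targets, and Btg2, with a difference equal to that of Ptpn14, among the least steady.

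Beyond these 37, 26 other p53 targets were measured, and 0 of them passed against shLuc with either hairpin in limma. With shApela_1 19 of 26 were above shLuc (median 0.06), with an unadjusted p under 0.05 for 5, where 54.5% of all genes were above and 7.69% under 0.05. With shApela_2 11 of 26 were above (median -0.02), or 13 of 26 without the third shApela_2 array (median 0.01), with 1 under 0.05, where 57.5% of all genes were above and 5.77% under 0.05. Rap2b, a small GTPase, measured 8.37, 8.25 and 8.36 with shApela_1 and 8.15, 8.12 and 8.08 with shApela_2, against 8.05, 8.09 and 8.12 with shLuc (0.24 and 0.03, adjusted p = 0.0952 and 0.841). Its shApela_1 arrays lay above all others. Steap3, an iron reductase, differed by 0.15 and -0.02, Pidd1, a scaffold that activates caspase-2, by 0.18 and -0.07, and Bcl6, a transcriptional repressor, by 0.14 and 0.02. Thbs1, a secreted matrix protein, differed by -0.41 and -0.31, and Igfbp3, which binds insulin-like growth factors, by 0.04 and -0.21. Bbc3 and Pmaip1, the activators of mitochondrial apoptosis also called PUMA and NOXA, differed by -0.02 and 0.03 with shApela_1 and by 0.09 and 0.06 with shApela_2.

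The genes that activate or assist p53 and those that restrain it did not pass either (0 of 19 and 0 of 16 in limma with each hairpin, and at an unadjusted p under 0.05 4 and 0 with shApela_1, where 7.69% of all genes were under it, and 1 and 1 with shApela_2, near the 5.77% of all genes). The activators had medians of -0.02 and -0.04. Those with an unadjusted p under 0.05 were all below shLuc: the damage kinases Atm (-0.15) and Atr (-0.25), the damage adaptor Trp53bp1 (-0.15) and the acetyltransferase Ep300 (-0.17, adjusted p = 0.178) with shApela_1, and the checkpoint kinase Chek1 (-0.12) with shApela_2. Among the restraints, with medians of 0.00 and -0.02, the ubiquitin ligase gene Cop1 measured 9.51, 9.45 and 9.36 with shApela_2, against 9.63, 9.65 and 9.80 with shLuc (-0.25, limma, adjusted p = 0.68). With shApela_1 it differed from shLuc by 0.00.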

How the data were processed

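Total RNA was measured on Affymetrix arrays, 9 in all. The deposited table gives a log2 value for every probe set on every array, from RMA in Partek 6.6 per the submitters' processing notes. The base of the log was read from the values. The number of arrays limits the precision. Of 28853 probe sets, 21775 had 1 gene symbol in GEO's platform annotation, 1578 several and 5500 none, and each gene was represented by its brightest. Promoter sequences are RefSeq's (GRCm38.p6).

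The members, their function groups and the other lists were chosen with earlier results of these data known. Genes were tested with limma 3.58.1 in R 4.3.3 (lmFit, eBayes, two-sided) in 1 fit of all 9 arrays (6 residual degrees of freedom), checked on simulated data, with Benjamini-Hochberg adjustment over 19938 genes. SE and 95% intervals are limma's, and SD is over 3 arrays. Levels per array are given for members past an adjusted p of 0.05, for the largest positive and negative difference of each function group with each hairpin, and for Mdm2, Ccng1, Phlda3 and Ptpn14. Other lists are represented by genes with an unadjusted p under 0.05 against shLuc and by Bbc3 and Pmaip1.

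Deviations of arrays of equal number correlated by 0.44, 0.40 and 0.68 between shApela_1 and shLuc, so the numbers were taken from the data to pair those groups. The correlations were weak between the hairpins (0.18, 0.21 and 0.21) and uneven between shApela_2 and shLuc (-0.01, 0.67 and 0.47). Pairing is therefore uncertain in both of these comparisons. The replicate block applied the numbers to all 3 groups in 1 fit. Alternatives were a trended robust prior, dim genes left out (mean under 7.06), other scalings, array weights, the replicate block, only the compared arrays, probe sets averaged, an adjusted p under 0.01, single arrays left out, and the block without the third shApela_2 array.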

Additional observations from a re-analysis of the deposited data

Results flagged for a closer look

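Ptpn14 differed between the hairpins by a test of the difference itself: shApela_2 minus shApela_1 was -0.31 (limma, adjusted p = 0.0276), with levels of 9.23 ± 0.04 in shApela_2 and 9.54 ± 0.05 in shApela_1 (SD, n = 3 each). All 3 shApela_2 arrays lay below all 3 shApela_1 arrays, while Apela itself differed between the hairpins by 0.02. Groups of 3 arrays are too small for a test of single outlying arrays.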

How the results depend on the processing

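The numbers of targets past the threshold moved with the processing. With shApela_1, 2 targets became 0 with the trended robust prior, with array medians centred and with only the compared arrays, and 1 after a second quantile normalization; leaving out single arrays gave 0 to 2. Between the hairpins, 1 target became 2 with centred medians, 5 with array weights, 6 with the replicate block, 3 on the arrays numbered 1 and 2 (chosen after seeing the data) and 0 with only the compared arrays, and 0 to 1 without single arrays. Over all genes, 67 with shApela_1 became 37 (robust prior), 121 (second quantile normalization, 37 higher and 84 lower against 28 and 39), 31 (centred), 688 (array weights), 190 (replicate block), 44 (only the compared arrays), 249 (arrays 1 and 2), 7 (adjusted p under 0.01) and 3 to 146 without single arrays. With shApela_2, 3 genes became 7, 23 and 8 (second quantile normalization, array weights and replicate block) and 2 to 6 without single arrays. Between the hairpins, 189 genes became 1446 (array weights), 653 (replicate block), 28 (only the compared arrays), 434 (arrays 1 and 2), 27 (adjusted p under 0.01) and 19 to 222 without single arrays. Of those 189, 71 were higher and 118 lower, against 140 and 121 with the second quantile normalization. The replicate block changed no call against shLuc among the targets. The block without the third shApela_2 array, also chosen after seeing the data, passed 1376, 23 and 1200 genes in the 3 comparisons, and 7, 0 and 6 targets. The causes were not tested.

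Signs turned for small differences, none past the threshold. Against shLuc with shApela_2, array weights gave 0.0503 for Sesn1, 0.0892 for Btg2, 0.0147 for Gadd45a, 0.0189 for Polk and 0.0144 for Polh, centring gave -0.00642 for Ptpn14 and -0.0306 for Ercc5, a second quantile normalization 0.0139 for Btg2, and arrays 1 and 2 alone 0.0134 for Sesn1, 0.0419 for Btg2 and 0.00754 for Gadd45a. Between the hairpins, centring gave -0.0219 for Plk3, array weights 0.0464 for Rrm2b and 0.00951 for Ercc5, and arrays 1 and 2 alone 0.0526 for Rrm2b and 0.00444 for Ercc5. Leaving out single arrays gave, with shApela_2 against shLuc, -0.135 to 0.0482 for Sesn1, -0.00227 to 0.0616 for Ptpn14, -0.154 to 0.166 for Btg2, -0.102 to 0.0243 for Gadd45a, -0.0446 to 0.217 for Plk3, -0.0876 to 0.0226 for Rrm2b, -0.236 to 0.0662 for Polk, -0.376 to 0.0399 for Polh and -0.0777 to 0.167 for Ercc5. It gave -0.0852 to 0.025 for Rrm2b with shApela_1, and between the hairpins -0.0567 to 0.0105 for Ccng1, -0.0958 to 0.166 for Plk3, -0.0416 to 0.0253 for Rrm2b and -0.195 to 0.0498 for Ercc5. The block without the third shApela_2 array gave 0.00831 for Sesn1 and 0.0521 for Btg2 with shApela_2 against shLuc, and 0.0124 for Rrm2b and 0.017 for Fbxw7 between the hairpins.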
